A study of Oryza sativa with 6 samples.

Results

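Stress-associated NAC factors and abscisic acid (ABA)-responsive bZIP factors were followed in panicles of rice (Oryza sativa, cultivar Nipponbare). They are 9 of the 42189 loci in the deposited table: the NAC genes SNAC1 (LOC_Os03g60080), NAC6, also called SNAC2 (LOC_Os01g66120), NAC5 (LOC_Os11g08210), NAC10 (LOC_Os11g03300) and NAP (LOC_Os03g21060), and the bZIP genes bZIP23 (LOC_Os02g52780), bZIP46 (LOC_Os06g10880), bZIP72 (LOC_Os09g28310) and ABI5 (LOC_Os01g64000). Their rows were taken by locus identifier, from a list drawn up with earlier results of these data known. The table pairs no identifier with a name. A RefSeq gene table of assembly ASM3414082v1 holds the names NAC6, NAC5 and bZIP23, each on the chromosome that its identifier gives, and has no entry under the other 6 names.

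The groups were 3 panicle libraries of plants labelled as overexpressing OsEXPA7, an alpha-expansin that loosens cell walls, and 3 panicle libraries of wild-type Nipponbare. Both groups carry the treatment label natural, and the genotype label is EXPA7_OE for the overexpression group and EXPA7 for wild type. The labels give no promoter for the transgene, no number of transgenic lines and no panicle stage. The sample titles call the libraries of each group biological replicates, but do not say whether these were separate plants. A p-value therefore reflects only how these libraries spread, which may not be the spread between plants or lines.

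NAC and bZIP proteins are DNA-binding transcription factors. In the ABA pathway the hormone binds receptors that inhibit clade A PP2C phosphatases, which frees SnRK2 kinases (called SAPK in rice) to phosphorylate bZIP factors; these bind ABA-responsive elements in promoters. Stress NAC genes such as SNAC1 and NAC6 are known in rice as genes induced by drought, salt and ABA whose overexpression raises stress tolerance, and NAP is known for promoting leaf senescence.

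Expression was given as TPM, a share of all transcripts corrected for transcript length that sums to the same total in each library. Read depth is unknown. OsEXPA7 (LOC_Os03g60720, paired with the name from general knowledge) measured 5077, 4323 and 4946 TPM in the overexpression libraries, against 964, 959 and 882 TPM in wild type. Correlations of log2(TPM + 1) between libraries were 0.991 to 0.993 within a group and 0.948 to 0.953 between groups. The floral identity genes of the MADS family and DROOPING LEAF, which mark the panicle, summed to 1401 to 1418 TPM with overexpression and 1262 to 1278 TPM in wild type over 15 loci. The endosperm genes GluA1 and Wx stayed below 1 TPM in every library.

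SNAC1 showed the largest difference of the 9 genes. It measured 201, 171 and 195 TPM in the overexpression libraries, against 11.2, 11.1 and 9.95 TPM in wild type. The lowest overexpression library was thus far above the highest wild-type library. The mean was 189 ± 16.0 TPM with overexpression and 10.8 ± 0.711 TPM in wild type (SD, n = 3 each), a 17.6-fold ratio. The log2 change of TPM + 1 was 4.01 ± 0.08 (SE), with an adjusted p of 2.47e-09 (limma, Benjamini-Hochberg over all 23395 loci tested). Among those loci SNAC1 ranked 37 by size of rise. Panicles are mixed tissue, and a change in the number of cells that express a gene cannot be told apart from a change of its RNA per cell.

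NAC6, a close relative of SNAC1 in sequence and in stress induction, was lower in level and changed in the same direction. It measured 11.5, 11.1 and 11.3 TPM with overexpression, against 3.33, 3.16 and 2.94 TPM in wild type. The groups lay well apart and each was tight. The ratio of means was 3.59, and the log2 change was 1.57 ± 0.09 (SE; limma adjusted p = 1.79e-06). SNAC1 and NAC6 did not change in proportion: the ratio of SNAC1 to NAC6 was 16.7 ± 1.21 with overexpression and 3.42 ± 0.076 in wild type (SD, n = 3 each).

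NAC5, a further stress-induced NAC gene, did not pass the threshold. It measured 2.68, 3.43 and 2.25 TPM with overexpression, against 2.93, 2.03 and 3.01 TPM in wild type, and the groups overlapped. The log2 change was 0.05 ± 0.16 (SE; limma adjusted p = 0.818). Its 95% interval allows a ratio of TPM + 1 between 0.808 and 1.33, which leaves out changes of the size seen for SNAC1 or NAC6.

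NAC10, known in rice for drought tolerance when expressed in roots, was near the limit of the filter. It measured 1.42, 1.67 and 1.76 TPM with overexpression, against 1.24, 1.03 and 0.644 TPM in wild type. The groups did not overlap, but they nearly met. The log2 change was 0.42 ± 0.15 (SE, limma adjusted p = 0.048), and the call was lost under 10 of 14 alternatives. Over all 14 the limma adjusted p ran from 0.0232 to 0.141. The replicate block was among those that lost the call (limma adjusted p = 0.0763). NAC10 lies in the part of chromosome 11 that has a recent duplicate on chromosome 12, and no source used here says how reads shared by such copies were assigned.

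NAP was too low for the test, which required 1 TPM or more in 3 or more libraries. It measured 1.01, 0.942 and 0.874 TPM with overexpression, against 0.944, 0.758 and 0.553 TPM in wild type, and the groups overlapped. The log2 difference was 0.15, with no call when the filter was dropped (limma adjusted p = 0.38). It was 0.32 with a pseudocount of 0.1, 0.23 without wild-type replicate 1 and 0.071 without wild-type replicate 3.

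**Figure D1:**
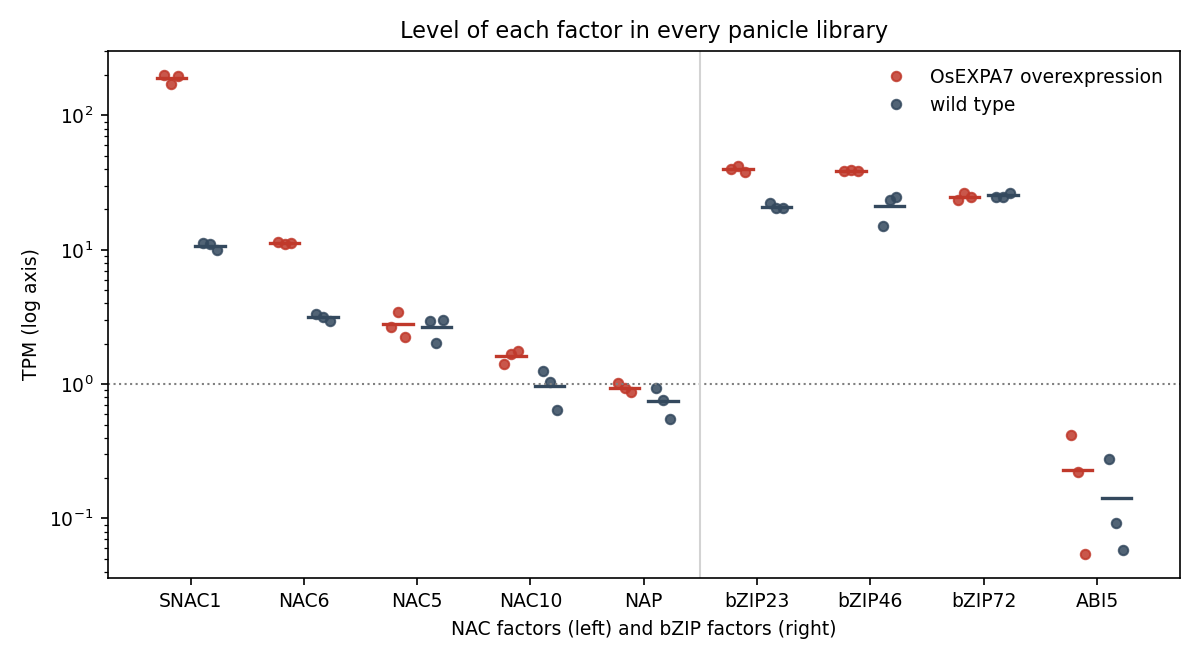
TPM of the 9 factors (vertical, log axis) in each library; points are libraries (red, OsEXPA7 overexpression; dark blue, wild type), short lines are group means, and the dotted line marks 1 TPM. SNAC1 at 171 to 201 TPM with overexpression stands clear of 9.95 to 11.2 TPM in wild type, whereas the points of NAC5, NAP, bZIP72 and ABI5 overlap between the groups.

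The rise of SNAC1 changed the make-up of the transcripts of the 5 NAC genes followed here, a chosen set and not the whole family. The 9 other NAC loci described below summed to 48.6 to 56.5 TPM with overexpression and 31.5 to 33.8 TPM in wild type. The 5 NAC genes summed to 206 ± 15.6 TPM with overexpression and 18.3 ± 1.31 TPM in wild type (SD, n = 3 each). SNAC1 supplied 91.9% ± 0.870 of that sum with overexpression and 58.9% ± 2.23 in wild type.

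**Figure D2:**
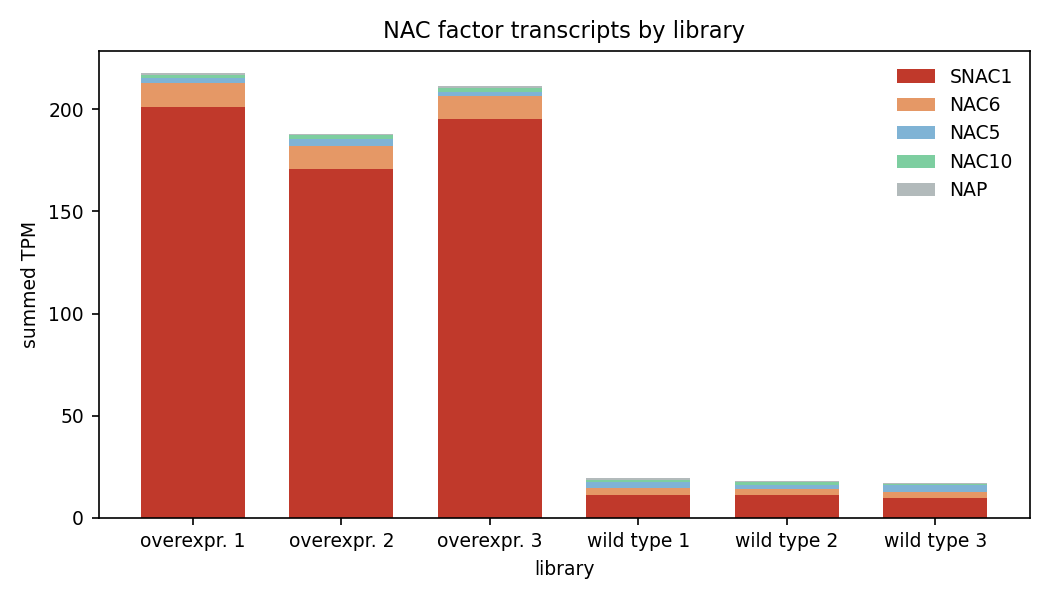
Summed TPM of the 5 NAC genes (vertical) in each of the 6 libraries, stacked by gene, overexpression libraries first. Overexpression bars reach 188 to 218 TPM and consist mostly of SNAC1, while wild-type bars reach 17.1 to 19.7 TPM.

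Of the bZIP factors, bZIP23 is known as a central regulator of ABA and drought responses in rice. It measured 39.7, 41.9 and 38.1 TPM with overexpression, against 22.2, 20.4 and 20.4 TPM in wild type. All overexpression libraries were above all wild-type libraries, with a narrow spread in each group. The ratio of means was 1.90, and the log2 change was 0.89 ± 0.07 (SE; limma adjusted p = 1.14e-05).

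bZIP46, a related ABA-responsive activator, had a similar log2 change, with a wider spread in wild type. It measured 38.6, 39.5 and 38.7 TPM with overexpression, against 15.0, 23.6 and 24.7 TPM in wild type. Wild-type replicate 1 stood below the other two wild-type libraries, and the groups did not overlap. The ratio of means was 1.84, or 1.61 without wild-type replicate 1. The log2 change was 0.88 ± 0.16 (SE; limma adjusted p = 0.00202), and 0.67 without that library (limma adjusted p = 0.000224).

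bZIP72, which in rice binds ABA-responsive elements and raises ABA sensitivity, did not pass the threshold. It measured 23.4, 26.6 and 24.7 TPM with overexpression, against 24.7, 24.7 and 26.7 TPM in wild type. The groups overlapped. The log2 change was -0.03 ± 0.07 (SE; limma adjusted p = 0.797), and the 95% interval allows a ratio of TPM + 1 between 0.877 and 1.10. The ratio of bZIP72 to bZIP23 was 0.626 ± 0.031 with overexpression and 1.21 ± 0.097 in wild type (SD, n = 3 each).

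ABI5, named after the Arabidopsis factor that represses germination in the presence of ABA, lay near 0 TPM in both groups and was not tested. It measured 0.415, 0.224 and 0.0545 TPM with overexpression, against 0.275, 0.0933 and 0.0579 TPM in wild type, and the groups overlapped. The log2 difference was 0.10, with no call when the filter was dropped (limma adjusted p = 0.796). It was 0.39 with a pseudocount of 0.1 and ranged from -0.003 without overexpression replicate 1 to 0.21 without overexpression replicate 3.

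Of the 7 factors tested, 5 rose, none fell and 2 missed the threshold. NAC10, among the 5, met the filter only through the overexpression libraries, as just 2 wild-type libraries reached 1 TPM. Across all loci tested 42.8% were called by the same rule, 25.3% higher and 17.5% lower, so a call alone was common. That balance depends on scaling: 59.1% of all calls were rises as deposited, 50.7% once libraries were scaled by the median of ratios, and 45.7% when quantile-normalized. Under either of these other scalings 4 of the factors rose, without NAC10. Past 2-fold were 2 of the 7, SNAC1 and NAC6, where 3.25% of all loci tested rose and 1.57% fell at least 2-fold. The groups did not overlap, with overexpression higher, for 5 of the 7 factors tested, NAC10 again among them, against 31.3% of loci tested. For NAP and ABI5, which were not tested, the groups overlapped. The median log2 change was 0.88 over the 7 factors tested and 0.06 over all loci tested.

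**Figure D3:**
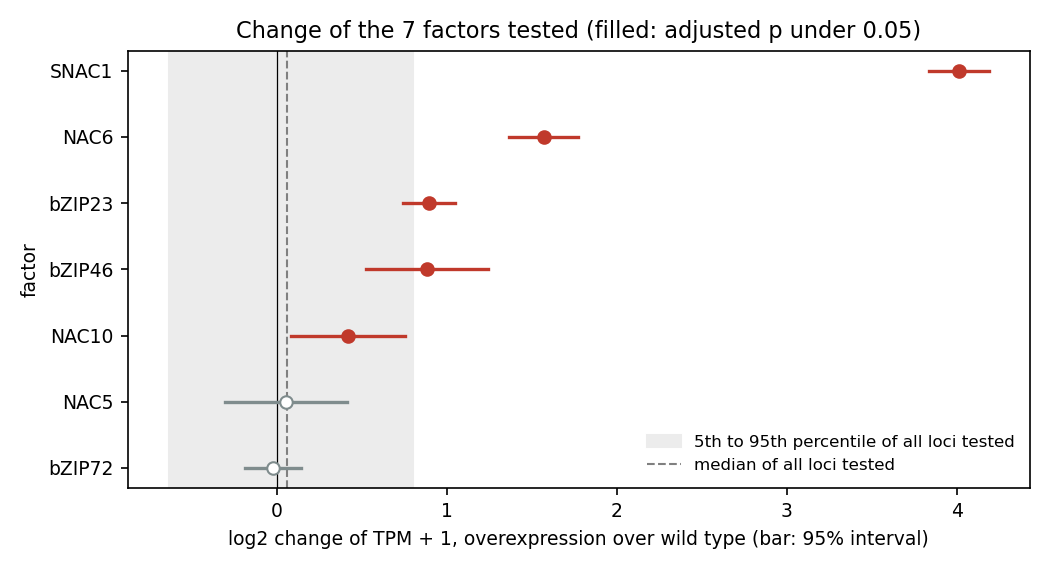
Log2 change of TPM + 1 (horizontal; overexpression over wild type) of the 7 factors tested, with 95% intervals from limma; filled points passed an adjusted p of 0.05, and the grey band spans the 5th to 95th percentile of all loci tested, -0.64 to 0.80. SNAC1 at 4.01 and NAC6 at 1.57 lie beyond the band with their whole intervals, and bZIP23 and bZIP46 lie just past its edge with intervals that reach into it.

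The order of the levels differed between the groups. With overexpression SNAC1 was the highest of the 9, ahead of bZIP23, bZIP46, bZIP72, NAC6, NAC5, NAC10, NAP and ABI5, and bZIP23 and bZIP46 were the only neighbours in that order whose libraries overlapped. In wild type the 3 highest were bZIP72, bZIP46 and bZIP23, at means of 25.4, 21.1 and 21.0 TPM, followed by SNAC1, NAC6, NAC5, NAC10, NAP and ABI5. There bZIP72 and bZIP46 overlapped, as did bZIP46 and bZIP23, NAC6 and NAC5, and NAC10 and NAP. By rank among all 42189 loci SNAC1 stood at 756 to 895 with overexpression and at 13260 to 14249 in wild type.

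The genes with profiles most like those of SNAC1 and NAC6 were sought over the 6 libraries by the root mean square difference of log2(TPM + 1), each profile centred on its own mean. Of 17991 loci with at least 5 TPM on average, the closest to SNAC1 was LOC_Os09g24580 on chromosome 9, with a difference of 0.058. It averaged 58.2 ± 3.46 TPM with overexpression and 2.75 ± 0.0614 TPM in wild type (SD, n = 3 each). The closest to NAC6 was LOC_Os02g52040 on chromosome 2, with a difference of 0.0254, at 451 ± 15.0 TPM with overexpression and 151 ± 7.85 TPM in wild type. The files pair neither locus with a name, and the likeness rests mainly on the step between the groups.

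The steps of the ABA pathway around these factors were then read from the same fit. The 8 lists held 58 loci, paired with gene names from general knowledge. They include other stress NAC genes and genes of chlorophyll loss, which are not steps of that pathway. RefSeq places 35 of the names on the chromosome, and in the order along it, that the identifiers give. It places 2 elsewhere, which were left out, and it does not hold the other names, so only loci checked in this way are named. Of the 56 loci, 48 were tested: 27 rose and 7 fell, against 25.3% and 17.5% of all loci tested. Of the 31 checked loci tested, 19 rose and 4 fell.

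The receptors showed no common direction: of 4 tested loci, all with unchecked names, 2 rose and 1 fell, and 1 rose under either other scaling. The clade A PP2C phosphatases, the negative regulators that the receptors inhibit and that ABA is known to induce, rose in 8 of 9 cases, with a median log2 change of 0.49. PP2C30 measured 55.0, 50.9 and 53.1 TPM with overexpression, against 3.00, 3.07 and 3.79 TPM in wild type. Its ratio of means was 16.1, close in size to that of SNAC1 (log2 change 3.66 ± 0.09 SE; limma adjusted p = 8.69e-09). PP2C68 measured 13.6, 11.7 and 12.6 TPM with overexpression, against 2.56, 2.55 and 2.34 TPM in wild type, a 5.09-fold ratio. The groups were far apart for PP2C30 and PP2C68, the only 2 of the 9 phosphatases that rose at least 2-fold.

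The SnRK2 kinases, which activate bZIP factors, moved little: of 10, 3 rose and 3 fell, none by 2-fold, and only 1 rise was left with quantile normalization. SAPK5 averaged 44.9 ± 1.12 TPM with overexpression and 60.4 ± 2.00 TPM in wild type, and SAPK6 averaged 37.1 ± 1.08 TPM with overexpression and 47.8 ± 1.98 TPM in wild type (SD, n = 3 each). These were the kinases with the largest changes, both falls. The sum over the 10 kinases was 608 to 631 TPM with overexpression and 580 to 607 TPM in wild type.

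Among 4 other bZIP loci of the ABA-responsive group, 3 rose and 1 did not pass the threshold, and none rose 2-fold. TRAB1, which binds ABA-responsive elements in rice, averaged 32.2 ± 1.96 TPM with overexpression and 22.8 ± 0.804 TPM in wild type (SD, n = 3 each; limma adjusted p = 0.000605). Among 9 other NAC loci 6 were tested, of which 3 rose and 2 fell. NAC3 rose 3.32-fold, to 22.1, 24.4 and 20.7 TPM with overexpression, against 6.76, 6.08 and 7.37 TPM in wild type (limma adjusted p = 2.53e-06). The larger of the falls, at a locus with an unchecked name, was to 1.10 ± 0.280 TPM with overexpression, against 3.00 ± 0.587 TPM in wild type (SD, n = 3 each; log2 change -0.93; limma adjusted p = 0.00134).

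Genes of ABA turnover held some of the larger changes: of 6 tested, 4 rose, 3 of them at least 2-fold, and 1 fell. All 3 loci of the breakdown enzyme rose, whereas of 3 tested synthesis loci 1 rose, 1 fell and 1 was not called. ABA8ox1, an ABA 8'-hydroxylase that starts ABA breakdown, measured 80.3, 84.5 and 82.5 TPM with overexpression, against 10.1, 10.04 and 11.3 TPM in wild type (ratio 7.89; limma adjusted p = 6.57e-09). ABA8ox3, of the same enzyme family, averaged 20.8 ± 1.41 TPM with overexpression and 5.01 ± 1.03 TPM in wild type (SD, n = 3 each). On the synthesis side NCED3, a 9-cis-epoxycarotenoid dioxygenase named here after its values were seen, averaged 11.7 ± 1.21 TPM with overexpression and 3.59 ± 0.215 TPM in wild type (SD, n = 3 each; ratio 3.26). The synthesis locus that fell, whose name is unchecked, averaged 0.624 ± 0.165 TPM with overexpression and 2.13 ± 0.656 TPM in wild type (SD, n = 3 each; log2 change -0.93; limma adjusted p = 0.00257). The hormone itself was not measured.

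Of 7 late embryogenesis abundant and dehydrin-type loci, known ABA-responsive targets of such factors, 4 were tested: 3 rose, 1 of them at least 2-fold, and 1 did not pass the threshold. The 7 loci summed to 16.4 to 19.97 TPM with overexpression and 6.73 to 7.63 TPM in wild type, and the 5 checked loci among them to 8.06 to 8.84 TPM with overexpression and 5.87 to 6.80 TPM in wild type. Most of the difference came from 1 locus with an unchecked name, at 8.69 ± 1.90 TPM with overexpression and 0.474 ± 0.114 TPM in wild type (SD, n = 3 each; log2 change 2.70; limma adjusted p = 2.37e-06). A further locus of this list was left out because RefSeq places its name on another chromosome. It averaged 243 ± 9.35 TPM with overexpression and 107 ± 3.13 TPM in wild type (SD, n = 3 each), a 2.26-fold ratio. The sums given here depend on leaving it out. Of 5 loci of chlorophyll loss, a process that NAP promotes in senescing leaves, 1 rose and 4 did not pass the threshold. That 1 was NYC1, a chlorophyll b reductase, at 16.2 ± 1.05 TPM with overexpression and 12.4 ± 0.404 TPM in wild type (SD, n = 3 each; limma adjusted p = 0.00598).

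**Figure D4:**
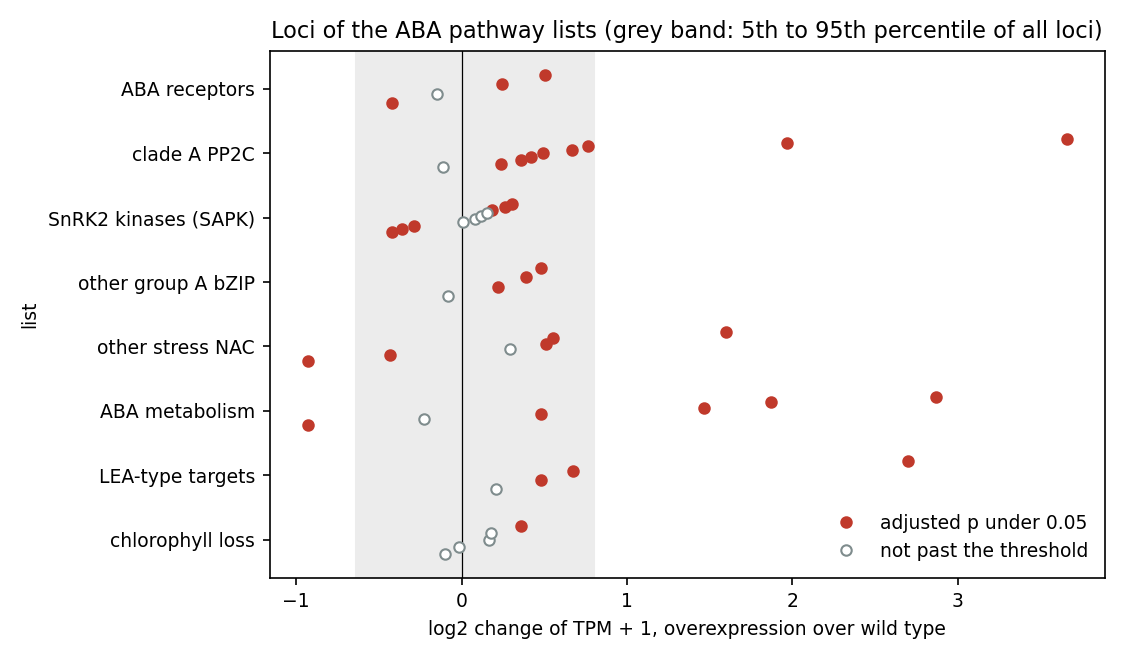
Log2 change of TPM + 1 (horizontal, overexpression over wild type) of the 48 tested loci of 8 lists (vertical). The lists cover the ABA pathway, other stress NAC genes and chlorophyll loss. Red points passed an adjusted p of 0.05, open points did not, and the grey band spans the 5th to 95th percentile of all loci. Points of the PP2C and ABA metabolism lists reach 3.66 and 2.87, whereas all SnRK2 kinases lie between -0.42 and 0.30.

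Position on the chromosome was described after the data were seen. SNAC1 and OsEXPA7 lie on chromosome 3, separated by 46 tested loci in locus order. Of these 46, 18 rose and 6 fell, against 25.3% and 17.5% of all loci tested. At least 2-fold higher were 3 of the 46, against 3.25% of all loci tested. These 3 lay at steps -12, -11 and -4 from OsEXPA7, with log2 changes of 3.13, 4.97 and 2.00. On the other side of OsEXPA7, the loci at steps 3 and 11 rose by 2.57 and 1.22 on the log2 scale. Of the 10 tested loci next to SNAC1, 5 on either side, 5 rose, none of them 2-fold, and their median log2 change was 0.16. Of the 10 neighbours of bZIP72, which itself did not pass the threshold, 5 rose as well, 2 of them at least 2-fold and 1 by 4.31 on the log2 scale. Of the 10 neighbours of bZIP23, 3 rose, 1 of them by 4.42 on the log2 scale. The other tested factors had fewer rises among their 10 neighbours. For NAC6, 2 rose and 1 fell, and for NAC5, 2 rose and 4 fell. For bZIP46, 2 rose and 2 fell, and for NAC10, none rose and 2 fell. Falls numbered 1 for SNAC1, 2 for bZIP72 and 2 for bZIP23.

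**Figure D5:**
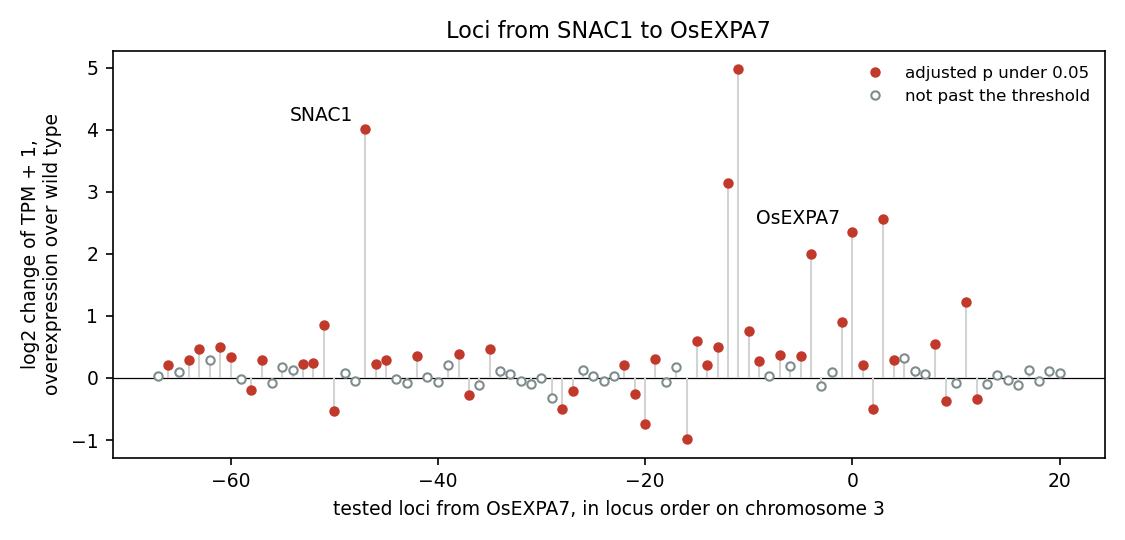
Log2 change of TPM + 1 (vertical; overexpression over wild type) of tested loci around SNAC1 and OsEXPA7, placed by their number of steps from OsEXPA7 in locus order (horizontal); red points passed an adjusted p of 0.05. SNAC1 at 4.01 stands 47 steps from OsEXPA7. The 46 loci between them have a median of 0.11, and the 3 that rose at least 2-fold lie at steps -12, -11 and -4.

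Some markers of another panicle tissue differed between the groups, without a common direction. Of 6 anther and tapetum loci, 1 rose and 3 fell, and their sum was 1498 to 1602 TPM with overexpression and 2835 to 2891 TPM in wild type. Most of that gap came from OsC6, a lipid transfer protein of the tapetum, at 261 ± 4.43 TPM with overexpression and 1520 ± 49.1 TPM in wild type (SD, n = 3 each). Among the 15 panicle markers 7 rose and 1 fell, none 2-fold, and 5 rose with median-of-ratios scaling. Of the leaf marker RBCS, 1 locus fell and the other was not called. The part of tissue make-up in the changes of the NAC and bZIP factors was not tested, and harvest or library batch cannot be told apart from genotype because the labels give none.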

How the data were processed

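The authors deposited TPM per locus for 6 panicle RNA-seq libraries; per the labels' protocols, messenger RNA libraries were made for Illumina sequencing. No source used here names the aligner, quantifier or annotation. Rice LOC_Os identifiers are used, although the mouse builds GRCm38 and mm10 appear in the submitters' processing notes. Libraries were grouped by title. The 23395 loci that reached 1 TPM in 3 or more libraries were tested on the log2(TPM + 1) scale with limma 3.58.1 in R 4.3.3 (empirical Bayes with trend, two-sided), without a replicate block, and Benjamini-Hochberg adjustment over all of them; the threshold was 0.05. Fold changes on this scale understate changes of low loci; ratios of means carry no pseudocount. The fit was tested on simulated data. Depth is unknown, so no counting interval is given. All 9 genes are reported. Of the 2 loci with the largest change past the threshold in each pathway list, those with a checked name are named; NCED3 was added after its values were seen. Genes and lists were chosen with earlier results of these data known. Alternatives were no filter, a minimum of 5 TPM, a pseudocount of 0.1, quantile normalization, median-of-ratios scaling, no trend, robust variance, library weights, the replicate block and leaving out each library. Motifs and proteins planned for description were not analysed here.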

Additional observations from a re-analysis of the deposited data

How the results depend on the processing

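SNAC1, NAC6, bZIP23 and bZIP46 remained called as higher in each of the 15 alternatives, at log2 changes of 3.96 to 4.12, 1.499 to 1.81, 0.78 to 0.93 and 0.67 to 1.01. bZIP46 came close to the threshold without a filter (limma adjusted p = 0.0491), while SNAC1, NAC6 and bZIP23 stayed at or below 0.00107 (limma adjusted p). The number of the 9 factors past the threshold was 4 or 5. NAC10 passed under 4 of 14 alternatives, with log2 changes of 0.29 to 0.72. NAC5 and bZIP72 passed under none and had no stable sign: NAC5 was at -0.021 with library weights and ranged from -0.079 to 0.155 when single libraries were left out; bZIP72 ranged from -0.073 to 0.016 when single libraries were left out and fell to -0.14 with quantile normalization. The pathway loci past the threshold numbered 27 to 37, and all loci past it 7587 to 12434 against the reported 10002. The loci named from the pathway lists passed under all 15. Quantile normalization moved the median log2 change of all loci to -0.021. Deviations of same-numbered libraries correlated at 0.097, -0.0988 and -0.0685, so the numbers were not taken to pair the libraries; the replicate block called 9264 loci and, of the 9 factors, changed only the call of NAC10. NAC5 and NAC10 gave no value with the filter at 5 TPM, and NAP and ABI5 were tested only without a filter. TPM keeps no depth, which limits what can be said of NAP and ABI5.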
